A study of Mus musculus with 2 samples.

Results

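Creatine kinases and adenylate kinases pass phosphate groups between the adenine nucleotides and their partners, and 6 of them, Ckb, Ckmt1, Ak1, Ak3, Ak4 and Ak6, were followed here through the cell classes of the mouse retina. They were the rows of the count table with these symbols, and all 6 of them were present among 17087 genes. The set was chosen by levels per class and STZ over control ratios already seen in these same libraries, so every value below is a description. The retinas came from male mice labelled C57BL/6 (C57BL/6J in the protocol) and were profiled by droplet-based single-cell RNA sequencing. The STZ group, labelled treated, had received 55 mg/kg of streptozotocin, which kills pancreatic beta cells, by intraperitoneal injection when aged 3 to 5 weeks, and was kept with high blood glucose (diabetes was defined as above 300 mg/dL) for 25 weeks. The control group was labelled untreated. Neither a vehicle injection nor the age of the controls is given in the sources used here. Cells of 3 retinas were pooled for each group, which gave 1 library per group, so the spread between animals is unknown, no test was possible and intervals cover counting error only.

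A creatine kinase moves a phosphate group between ATP and creatine. Ckb encodes the cytosolic form typical of brain, and Ckmt1 encodes the ubiquitous mitochondrial form, which sits between the mitochondrial membranes and charges creatine with ATP made inside. The pair is the basis of the phosphocreatine shuttle, by which cells with uneven energy use, photoreceptors among them, carry high-energy phosphate from mitochondria to the places that spend it. Adenylate kinases equilibrate ATP, ADP and AMP, and so set the AMP signal that AMP-activated protein kinase reads. Ak1 is the cytosolic form, Ak3 and Ak4 are matrix enzymes of mitochondria (Ak3 prefers GTP as its phosphate donor, and Ak4 has little activity and is known in human cell lines as a hypoxia-induced gene), and Ak6 is a nuclear family member whose yeast counterpart acts in the maturation of the small ribosomal subunit.

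On build GRCm38 (mm10, GENCODE vM21), Ckb lies on the minus strand at chr12:111669361-111672338 and Ak3 on the minus strand at chr19:29020833-29047961. The plus strand carries Ckmt1 at chr2:121357714-121363737, Ak1 at chr2:32621758-32635058, Ak4 at chr4:101419277-101466995 and Ak6 at chr13:100650979-100666359. Ak6 shares 1564 of its 2769 exon bases with Taf9 on the same strand, so reads in the shared exons cannot be assigned by position alone. The annotated 3′ ends of Ak6 and Taf9 are 10299 bases apart, and Taf9 itself had at most 9 UMIs in any class of either library. Because 1564 of the 2120 exon bases of Taf9 are shared, this low count cannot show that Taf9 RNA is absent. How shared reads were counted is not given, so the Ak6 row may not report Ak6 RNA alone. Ckmt1 overlaps Strc by 10 bases, and Ak3 overlaps Cdc37l1 by 5849 bases, both on opposite strands. Also on opposite strands, Ak3 overlaps 1700018L02Rik by 1717 bases and Ak6 overlaps Rad17 by 73 bases.

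The start regions of the 3 members that were lower in STZ in at least 1 class are shown because Ak4 and Ak6 were lower together in the bipolar classes and Ckmt1 was lower in rods. Each window is RefSeq sequence on GRCm38.p6, 300 bases on the gene's own strand, from 250 bases before to 50 after a RefSeq start. Of several windows, the one nearest the GENCODE start is shown. Capitals mark GCGTG, a form of the core that hypoxia-inducible factors read, and GGGCGG, the GC box, each on either strand and with overlaps counted.
Ckmt1: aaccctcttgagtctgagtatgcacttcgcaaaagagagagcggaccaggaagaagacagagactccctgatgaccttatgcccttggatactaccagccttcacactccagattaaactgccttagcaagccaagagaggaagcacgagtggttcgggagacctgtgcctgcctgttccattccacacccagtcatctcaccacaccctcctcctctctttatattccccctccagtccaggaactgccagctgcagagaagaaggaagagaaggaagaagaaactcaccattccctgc
Ak4: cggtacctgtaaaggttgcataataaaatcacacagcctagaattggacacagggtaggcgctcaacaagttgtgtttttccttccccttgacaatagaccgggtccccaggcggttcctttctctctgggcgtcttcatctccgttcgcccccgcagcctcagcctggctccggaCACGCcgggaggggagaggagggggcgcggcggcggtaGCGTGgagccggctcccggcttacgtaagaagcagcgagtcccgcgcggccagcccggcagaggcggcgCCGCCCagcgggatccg
Ak6: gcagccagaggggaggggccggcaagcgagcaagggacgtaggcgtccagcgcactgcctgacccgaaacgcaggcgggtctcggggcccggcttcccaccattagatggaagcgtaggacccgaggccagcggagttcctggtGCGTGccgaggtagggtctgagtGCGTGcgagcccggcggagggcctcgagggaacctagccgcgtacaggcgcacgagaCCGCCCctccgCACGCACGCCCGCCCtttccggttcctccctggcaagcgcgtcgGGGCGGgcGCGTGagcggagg
These windows lie at chr2:121357526-121357825, chr4:101419039-101419338 and chr13:100651093-100651392, all on the plus strand. The RefSeq start of Ak6 is 364 bases from its GENCODE start, so the Ak6 window lies wholly inside the gene as placed above. It also lies between the starts of Rad17 (minus strand, 100651051) and Taf9 (plus strand, 100651579). The Ak4 window held 2 copies of GCGTG and 1 of GGGCGG. The Ak6 window held 5 copies of GCGTG, a pair of them sharing 1 base, and 3 of GGGCGG. None of the searched letters was in the Ckmt1 window. The search also covered ACGTG, the other core form, and TAATCC, read by the photoreceptor factor CRX, and neither was found in these 3 windows. Ckmt1 and Ak4 have further RefSeq windows that are not shown. The Ak4 window at chr4:101419453-101419752 held 2 copies of ACGTG, 1 of GCGTG and 2 of GGGCGG, and the further Ckmt1 window held no copy of any. Of 32851 RefSeq windows, 32.4% held GCGTG, 35.7% GGGCGG, 19.6% ACGTG and 7.06% TAATCC, so GCGTG and GGGCGG are common in such regions.

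There were 12393 cells in the STZ library, at a median of 2062 UMIs (unique molecular identifiers, 1 per captured RNA molecule), and 7169 in the control library, at a median of 3800. The median mitochondrial share was 15.2% in STZ and 12.3% in control, and 21 cell barcodes occurred in both libraries. After filtering, 8232 STZ and 5098 control cells remained in 31 clusters. Clusters were named by marker genes, and the names end in -like because the rule that made them is not the authors' own. The 8 classes with at least 50 cells in each library were compared, and their sizes ran from 215 to 1525 cells in STZ and from 54 to 1285 in control. In every compared class the summed markers of that class were at 3546 CPM or more in STZ and 3474 CPM or more in control. Rod bipolar-like cells of the libraries lay in different clusters, 708 STZ and 35 control cells in one and 101 STZ and 847 control cells in the other. The 1667 STZ and 7 control cells of cluster 0 matched no class by the naming rule, although the rod markers Gnat1 and Cnga1 were among its top genes.

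A level is stated as CPM (UMIs of the gene on a scale on which all UMIs of that class and library sum to 1000000), with an exact 95% Poisson interval. UMIs count 3′ ends and carry no length scale, so CPM levels are compared between classes and libraries and not between genes, and shares among isoforms are shares of captured UMIs. A ratio of STZ over control is given as log2 with a conditional binomial interval. A gene was measured in a class at a pooled level of 10 CPM or more with 20 UMIs or more, and was called lower or higher where the ratio was at least 1.5-fold and its interval left out 1. The 6 kinases gave 35 measured kinase-class pairs of 48, of which 8 were lower, 5 were higher and 22 had no call. Over all genes and classes, 4.88% of 61628 measured pairs were lower and 5.34% were higher. These calls had been part of how the set was put forward, so nothing is read from their number.

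**Figure D1:**
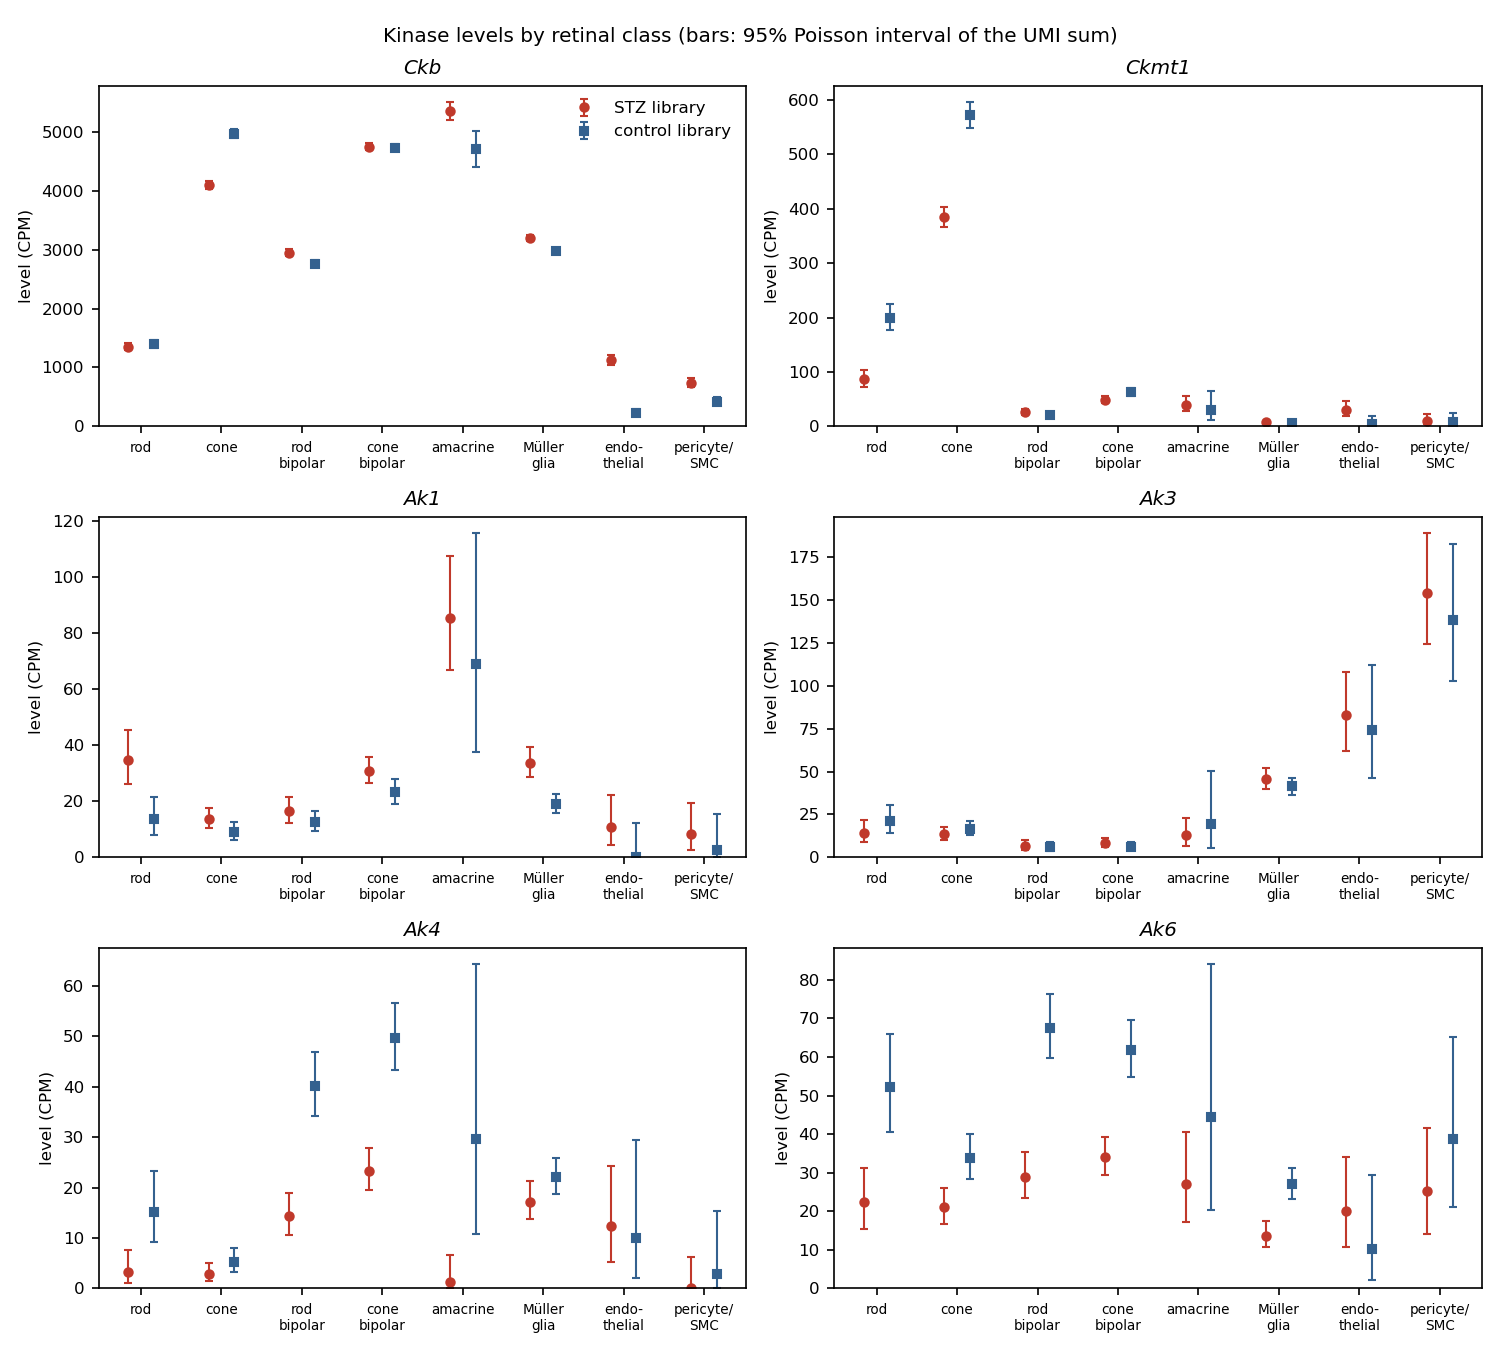
Level of each kinase (vertical axis, CPM, linear from 0 and scaled for each gene) in 8 retinal classes (horizontal axis). Red circles are the STZ library, blue squares the control library, and bars are 95% Poisson intervals. Ckb is high in Müller glia-like cells and in neurons other than rod-like cells. Ckmt1 is high in cone-like cells (384 CPM in STZ, 572 CPM in control), Ak1 in amacrine-like cells and Ak3 in pericyte or smooth muscle-like cells.

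The cytosolic creatine kinase Ckb had UMIs in every compared class, and no neuronal or glial class had a call. Its level was highest, by the mean of both libraries, in amacrine-like cells at 5359 CPM in STZ and 4706 CPM in control, followed by cone bipolar-like cells at 4751 CPM in STZ and 4735 CPM in control. Cone-like cells had 4100.5 CPM in STZ and 4976 CPM in control. Intervals of these 3 neighbours were not apart in both libraries, whereas the step from cone-like cells down to Müller glia-like cells, with 3207 CPM in STZ and 2982 CPM in control, was. Rod bipolar-like cells followed at 2949 CPM in STZ and 2767 CPM in control, and rod-like cells at 1352 CPM in STZ and 1396 CPM in control. In cone-like cells Ckb was lower in STZ by a ratio that is small beside the 1.5-fold limit, with a log2 of -0.28 (-0.31 to -0.25). The other 5 neuronal and glial classes lay between -0.05 in rod-like cells and 0.19 in amacrine-like cells. Among classes too small to compare, microglia-like cells had 936 CPM in STZ and 897 CPM in control, and neutrophil-like cells 1356 CPM in STZ. Rod-like and vessel cells were near or below these levels, and the part of free RNA in levels of this size was not tested.

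Ckb was lowest in the vessel classes, and those were where the libraries differed. Endothelial-like cells held 736 UMIs of Ckb in STZ and 68 in control, which is 1129.6 CPM and 229 CPM. The ratio was 4.94-fold (3.85 to 6.43), or 2.31 on the log2 scale. Pericyte or smooth muscle-like cells had 741 CPM in STZ and 419 CPM in control, a 1.77-fold ratio (1.47 to 2.14). Both pairs were called higher.

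RNA of photoreceptors and of other retinal classes moved in the same direction in these vessel cells. Together, 9 rod markers were at 2957 CPM in STZ and 810.0 CPM in control endothelial-like cells, and the 10 cone markers at 3628 CPM in STZ and 696 CPM in control, with none of either list at 0. The 10 Müller glia markers were at 6102 CPM in STZ and 1657 CPM in control in the same cells, with 1 of them at 0 in control. There the 8 rod bipolar markers were at 1217 CPM in STZ and 245 CPM in control. The 11 cone bipolar markers were at 344 CPM in STZ and 47.1 CPM in control, and the 9 amacrine markers at 146 CPM in STZ and 0 in control. Pericyte markers did not rise, at 1615 CPM in STZ and 1647 CPM in control. The 9 endothelial markers of the class itself were lower, at 13300 CPM in STZ and 20068.5 CPM in control. Endothelial-like cells also had a median of 951.5 UMIs in STZ and 3165 in control. In pericyte or smooth muscle-like cells the rod markers were at 2023 CPM in STZ and 882 CPM in control, and the cone markers at 1965 CPM in STZ and 740.2 CPM in control. The rod bipolar markers were at 1073 CPM in STZ and 219 CPM in control there, and the Müller glia markers at 1225 CPM in STZ and 305 CPM in control. The markers of the class itself were at 26699 CPM in STZ and 33069 CPM in control. The part of these markers and of depth in the Ckb ratios was not tested. In pericyte or smooth muscle-like cells the difference also lay in 1 cluster. Cluster 17, with 137 STZ and 83 control cells, had 430.0 CPM of Ckb in STZ and 405 CPM in control, a log2 ratio of 0.09 (-0.22 to 0.40). Cluster 23, with 89 STZ cells at a median of 687 UMIs and 8 control cells at a median of 641.5 UMIs, had 3045 CPM in STZ and 1352 CPM in control.

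After thinning every cell to 500 UMIs, Ckb was found in 56.1% of STZ and 13.8% of control endothelial-like cells. Before thinning, 76.5% of STZ and 51.7% of control cells had a UMI. Rod-like cells, the neuronal class with the lowest Ckb level, had it in 47.2% of the thinned cells in STZ and in 47.2% in control.

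The mitochondrial creatine kinase Ckmt1 was highest in photoreceptors in both libraries, and it was lower in STZ in rod-like cells. Cone-like cells had 384 CPM in STZ and 572 CPM in control. Rod-like cells had 86.5 CPM in STZ and 199.8 CPM in control. The step from cone-like to rod-like cells and the step from rod-like to cone bipolar-like cells (49.2 CPM in STZ and 63.0 CPM in control) were apart in both libraries, and no later step in the order was. Amacrine-like cells had 39.8 CPM in STZ and 29.6 CPM in control, rod bipolar-like cells 26.6 CPM in STZ and 21.4 CPM in control, and Müller glia-like cells 7.68 CPM in STZ and 5.33 CPM in control. The 10 cone markers were at 6660 CPM in STZ and 5365 CPM in control in rod-like cells. The part of cone RNA in the Ckmt1 levels and ratio of rod-like cells was not tested.

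In rod-like cells Ckmt1 was 2.31-fold lower in STZ (1.87 to 2.87), from 132 UMIs in STZ and 264 in control. All 3 rod-like clusters lay below 0, at log2 ratios of -1.39 in cluster 5, -0.84 in cluster 11 and -0.92 in cluster 12, and the interval of cluster 11 reached 0.11. In cone-like cells the ratio was 1.49-fold lower (1.39 to 1.59), just short of the 1.5-fold limit, with 1576 UMIs in STZ and 2287 in control. The log2 ratio in cone-like cells was -0.57 (-0.67 to -0.48). Cone bipolar-like cells were lower by a smaller ratio, -0.36 (-0.60 to -0.11).

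Counted per cell, Ckmt1 was likewise less frequent in STZ photoreceptors. In cells thinned to 500 UMIs it was found in 3.74% of STZ and 11.0% of control rod-like cells, and in 16.4% of STZ and 24.8% of control cone-like cells. Before thinning, 11.5% of STZ and 31.5% of control rod-like cells and 78.0% of STZ and 88.9% of control cone-like cells had a UMI. Müller glia-like cells, which had the lowest level, showed it in 0.478% of the thinned STZ cells and 0.623% of the thinned control cells.

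The 1 class in which Ckmt1 was called higher was endothelial-like cells, with 20 UMIs in STZ and 1 in control. Its log2 ratio of 3.19 has an interval from 0.55 to 8.56, and the UMIs came from 19 of 408 STZ cells and 1 of 87 control cells. The photoreceptor markers given above moved with it, and their part in the ratio was not tested.

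Within the creatine kinases the mitochondrial share was lower in STZ photoreceptors. Ckmt1 made up 6.01% (5.05 to 7.09) of the creatine kinase UMIs of STZ rod-like cells and 12.5% (11.1 to 14.0) of those of control rod-like cells. In cone-like cells it made up 8.57% (8.17 to 8.98) in STZ and 10.3% (9.91 to 10.7) in control. The share is free of the total UMI count of a class, since both genes come from the same cells. In the other compared classes it stayed at 2.64% or less in STZ and 1.95% or less in control. Of the muscle forms, Ckm, the cytosolic muscle creatine kinase, was measured in rod bipolar-like cells alone, with 20.02 CPM in STZ and 17.6 CPM in control, from 67 UMIs in STZ and 70 in control, and no call. In the other compared classes it stood at 4.26 CPM or less. Ckmt2, the muscle mitochondrial form, had at most 8 UMIs in STZ and 14 in control in any compared class, both in Müller glia-like cells.

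**Figure D2:**
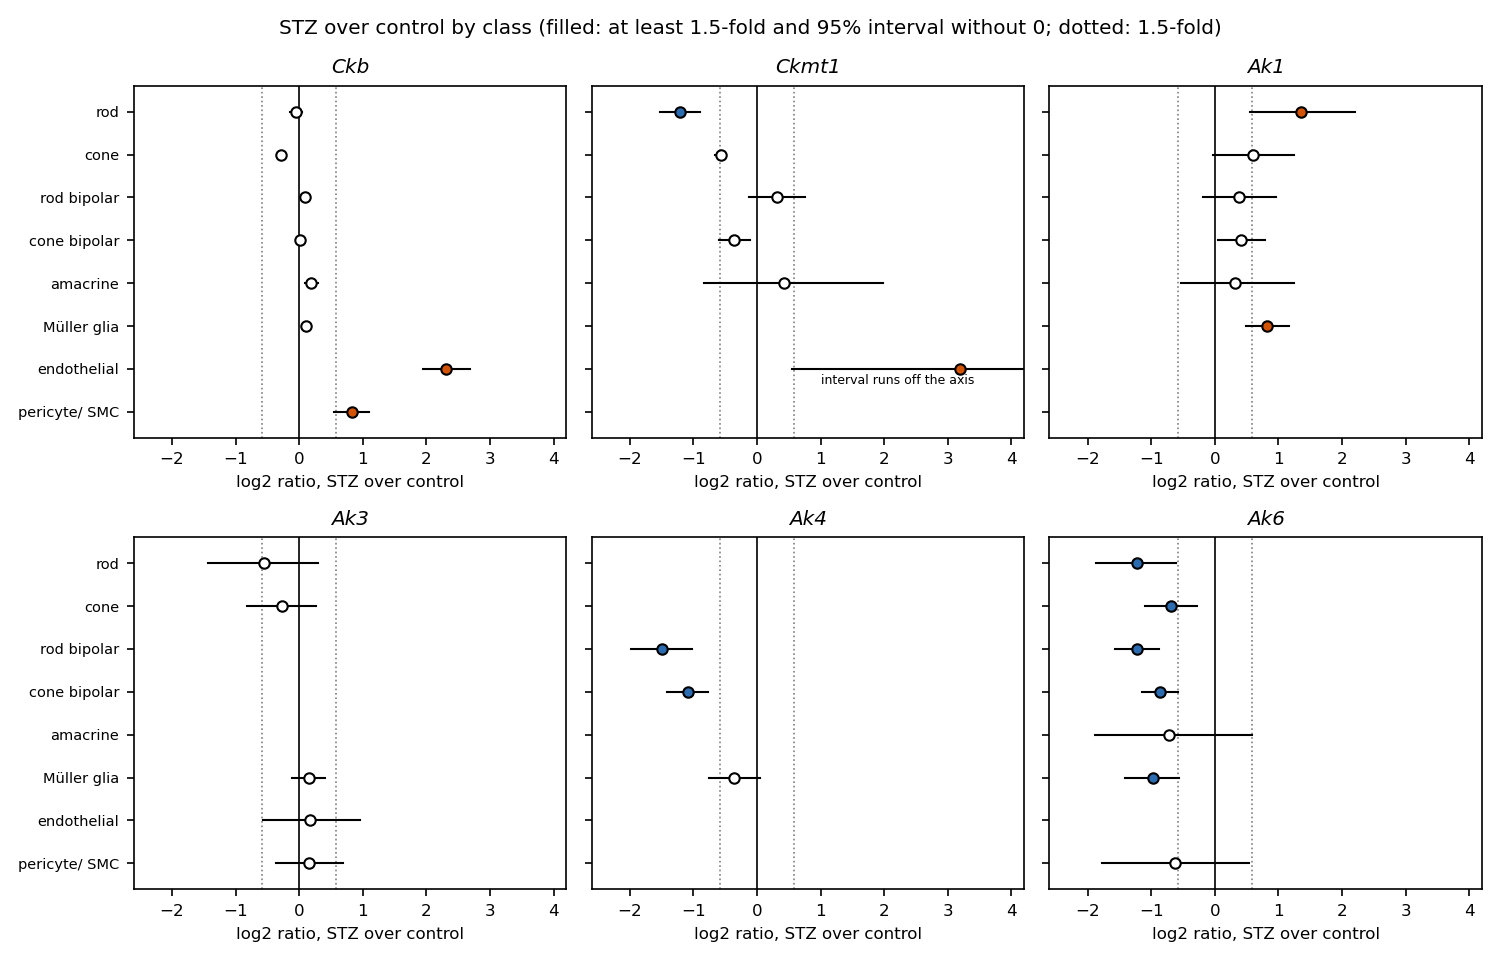
Log2 ratio of STZ over control (horizontal axis) by class (vertical axis) for measured pairs, with 95% counting intervals. Blue circles are called lower, orange circles called higher, open circles had no call, and dotted lines mark 1.5-fold. Ak6 lies left of 0 in all 7 classes in which it was measured, and Ckb lies near 0 except in the vessel classes.

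Among the adenylate kinases, Ak6 was the member with the most calls, on a row that may not report Ak6 RNA alone because of the exons shared with Taf9. It was lower in STZ in 5 of the 7 classes in which it was measured and had a negative ratio in the other 2. Rod bipolar-like cells had 29.0 CPM in STZ and 67.7 CPM in control, from 97 UMIs in STZ and 269 in control, a 2.33-fold lower level (1.84 to 2.98). Rod-like cells had 22.3 CPM in STZ and 52.2 CPM in control, 2.34-fold lower (1.53 to 3.64). Cone bipolar-like cells had 34.1 CPM in STZ and 61.9 CPM in control, 1.82-fold lower (1.502 to 2.20). Müller glia-like cells had 13.7 CPM in STZ and 26.9 CPM in control, 1.97-fold lower (1.48 to 2.65), and cone-like cells 20.97 CPM in STZ and 33.8 CPM in control, 1.61-fold lower (1.22 to 2.13). The level intervals of the libraries did not overlap in any of these 5 classes. Amacrine-like cells, with 26.9 CPM in STZ and 44.3 CPM in control, and pericyte or smooth muscle-like cells, with 25.1 CPM in STZ and 38.8 CPM in control, had wide intervals that held 1. Endothelial-like cells held 13 UMIs in STZ and 3 in control and fell under the limit of measurement.

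By the mean of both libraries Ak6 levels ran from rod bipolar-like down to endothelial-like cells, and no class was apart from the next in both libraries. Classes farther apart in the order did differ in both: rod bipolar-like cells had 29.0 CPM (23.5 to 35.4) in STZ and 67.7 CPM (59.8 to 76.2) in control, and Müller glia-like cells 13.7 CPM (10.6 to 17.4) in STZ and 26.9 CPM (23.2 to 31.2) in control. Of 4554 genes measured in the same 7 classes, 0.198% (9 genes) were called lower in 5 or more of them. Both the limit of 5 and the 7 classes were taken from Ak6 itself, and all classes come from the same 2 libraries. This share is therefore a description and cannot test how unusual Ak6 is. Within single clusters of at least 50 cells in each library and 20 UMIs, the ratio was below 0 in 14 of 14 clusters, from -1.29 to -0.18, and 7 intervals lay wholly below 0.

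Ak4, the low-activity matrix enzyme, was measured in 3 classes and lower in the 2 bipolar ones. Rod bipolar-like cells had 14.3 CPM in STZ and 40.2 CPM in control, from 48 UMIs in STZ and 160 in control, which is 2.81-fold lower (2.02 to 3.96). Cone bipolar-like cells had 23.3 CPM in STZ and 49.7 CPM in control, from 126 UMIs in STZ and 221 in control, which is 2.13-fold lower (1.71 to 2.67). Müller glia-like cells had 17.2 CPM in STZ and 22.1 CPM in control, and the interval of their log2 ratio, -0.76 to 0.04, held 0. By the mean of both libraries bipolar cells carried the highest Ak4 levels of the compared classes, although Müller glia-like cells lay above rod bipolar-like cells in STZ and no class was apart from the next in both libraries. In rod-like cells, under the limit of measurement, 5 UMIs were counted in STZ and 20 in control. Amacrine-like cells, also under it, had 1 UMI in STZ and 6 in control.

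By cluster, Ak4 was below 0 in 10 of 10 clusters, with 5 intervals wholly below 0, and the median log2 ratio was -1.15. Because most rod bipolar-like cells of the libraries lie in different clusters, the clusters were also read singly. Cluster 3 had 10.1 CPM of Ak4 in STZ, from 2 UMIs, and 40.6 CPM in control, a log2 ratio of -2.01 (-5.06 to -0.13). Cluster 6 had 14.6 CPM in STZ and, from 6 UMIs, 32.3 CPM in control. Ak6 stood at 35.4 CPM in STZ and 67.8 CPM in control in cluster 3, a log2 ratio of -0.94 (-2.27 to 0.13) from 7 UMIs in STZ, and at 28.6 CPM in STZ and 64.7 CPM in control in cluster 6. All 4 of these ratios lay below 0, but the Ak6 interval in cluster 3 held 0, and cluster 6, with 35 control cells, was given no interval. Cells of cluster 3 had a median of 1352 UMIs in STZ and 4591 in control.

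**Figure D3:**
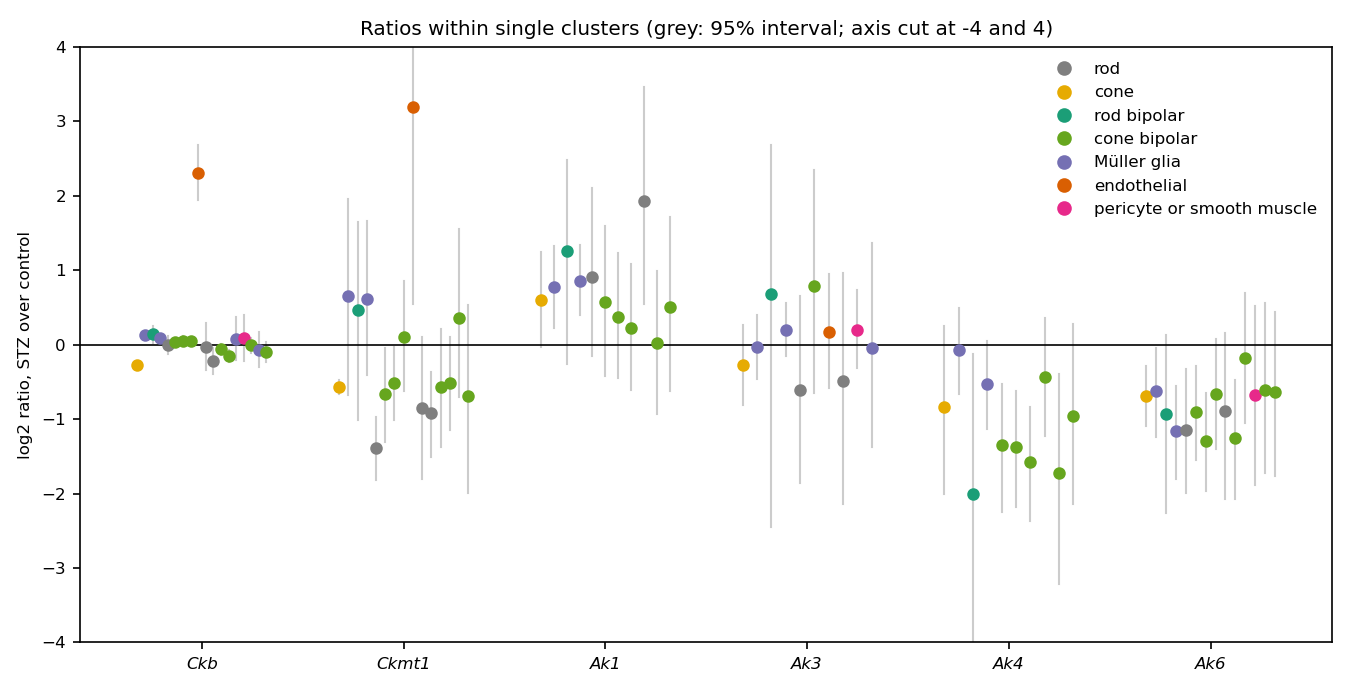
Log2 ratio of STZ over control (vertical axis, from -4 to 4) within single clusters of at least 50 cells per library and 20 UMIs, for each kinase (horizontal axis). Points are coloured by class and grey lines are 95% counting intervals. All points of Ak4 and Ak6 lie below 0 and all points of Ak1 above 0, while Ckb clusters around 0 with the endothelial-like point at 2.31.

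Ak1, the cytosolic isoform, went the other way. It was higher in STZ in rod-like and Müller glia-like cells and had positive ratios without a call in the other 4 classes in which it was measured. Rod-like cells had 34.7 CPM in STZ and 13.6 CPM in control, from 53 UMIs in STZ and 18 in control, a log2 ratio of 1.35 (0.56 to 2.21). Müller glia-like cells had 33.6 CPM in STZ and 19.0 CPM in control, from 162 UMIs in STZ and 128 in control, a log2 ratio of 0.83 (0.48 to 1.17). Amacrine-like cells had the highest Ak1 level, 85.5 CPM in STZ and 69.0 CPM in control, apart from the next class in both libraries. Cone bipolar-like cells had 30.9 CPM in STZ and 23.2 CPM in control, rod bipolar-like cells 16.4 CPM in STZ and 12.6 CPM in control, and cone-like cells 13.7 CPM in STZ and 9.001 CPM in control. The ratio was above 0 in 11 of 11 clusters, and 3 intervals lay wholly above 0. In rod-like cells the 10 Müller glia markers were also higher, at 1938 CPM in STZ and 912 CPM in control, and in Müller glia-like cells the 9 rod markers were at 1269 CPM in STZ and 690.2 CPM in control and the 10 cone markers at 703 CPM in STZ and 471 CPM in control. The part of these markers in the Ak1 ratios was not tested.

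Ak3, the GTP-dependent matrix enzyme, marked the vessel wall and glia and had no call in any class. Pericyte or smooth muscle-like cells had 154 CPM in STZ and 139 CPM in control. Endothelial-like cells had 82.9 CPM in STZ and 73.9 CPM in control, and Müller glia-like cells 45.9 CPM in STZ and 41.3 CPM in control. Müller glia-like cells were apart in both libraries from rod-like cells, the next in order, with 14.4 CPM in STZ and 21.2 CPM in control. The bipolar classes had the lowest levels, 8.33 CPM or less in STZ and 6.30 CPM or less in control. The log2 ratio lay between -0.55 and 0.16 in the 5 measured classes, and every interval held 0. Of these, the interval in Müller glia-like cells, -0.11 to 0.41, was the 1 that left out a 1.5-fold difference. Intervals reached 0.68 in pericyte or smooth muscle-like and 0.95 in endothelial-like cells, and -1.43 in rod-like and -0.81 in cone-like cells. Ak3 was higher still in pigment epithelium-like cells, which had 202 STZ but only 48 control cells and were not compared. There it stood at 243 CPM (192 to 303) in STZ and 541 CPM (394 to 723) in control, from 79 UMIs in STZ and 45 in control.

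The isoform makeup of the adenylate kinases, given as shares of the summed UMIs of Ak1, Ak3, Ak4, Ak5 and Ak6, differed by class and, in several classes, between the libraries. In rod-like cells Ak1 made up 46.5% (37.1 to 56.1) in STZ and 13.3% (8.10 to 20.3) in control, and Ak6 made up 29.8% (21.6 to 39.1) in STZ and 51.1% (42.4 to 59.8) in control. In rod bipolar-like cells Ak4 held 21.4% in STZ and 31.8% in control, with intervals that did not overlap, and Ak6 held 43.3% (36.7 to 50.1) in STZ and 53.5% (49.0 to 57.9) in control, with intervals that did. In cone bipolar-like cells Ak6 held 35.1% in STZ and 43.9% in control, and Ak4 24.0% in STZ and 35.2% in control, both with intervals apart. Ak1 held 26.7% in STZ and 14.0% in control in cone-like cells, and 24.6% in STZ and 9.94% in control in rod bipolar-like cells. In cone bipolar-like cells it held 31.9% in STZ and 16.4% in control, and the Ak1 intervals were apart in each of these classes. Ak6 in cone-like cells held 41.0% (34.2 to 47.9) in STZ and 52.3% (46.0 to 58.6) in control. In Müller glia-like cells Ak1 held 30.4% in STZ and 17.3% in control, Ak6 12.4% in STZ and 24.7% in control, and Ak3 the largest part, 41.5% in STZ and 37.8% in control. The intervals of Ak1 and Ak6 were apart there and those of Ak3 overlapped. Pericyte or smooth muscle-like cells were mostly Ak3, with 82.1% in STZ and 75.8% in control. In amacrine-like cells Ak1 held 65.8% (56.2 to 74.5) in STZ and 42.4% (25.5 to 60.8) of only 33 UMIs in control.

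The UMIs of these 5 genes together were lower in STZ in rod bipolar-like cells, at 66.9 CPM in STZ and 127 CPM in control, a log2 ratio of -0.92 (-1.15 to -0.69). Rod-like, cone-like and cone bipolar-like cells lay between -0.54 in cone bipolar-like and -0.33 in cone-like cells, with intervals below 0, whereas the ratio of -0.32 in amacrine-like cells had an interval from -0.89 to 0.28. In Müller glia-like cells, with 111 CPM in STZ and 109 CPM in control, the sum had a log2 ratio of 0.02 (-0.15 to 0.18). Ak1 and Ak6 had opposite ratios there.

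**Figure D4:**
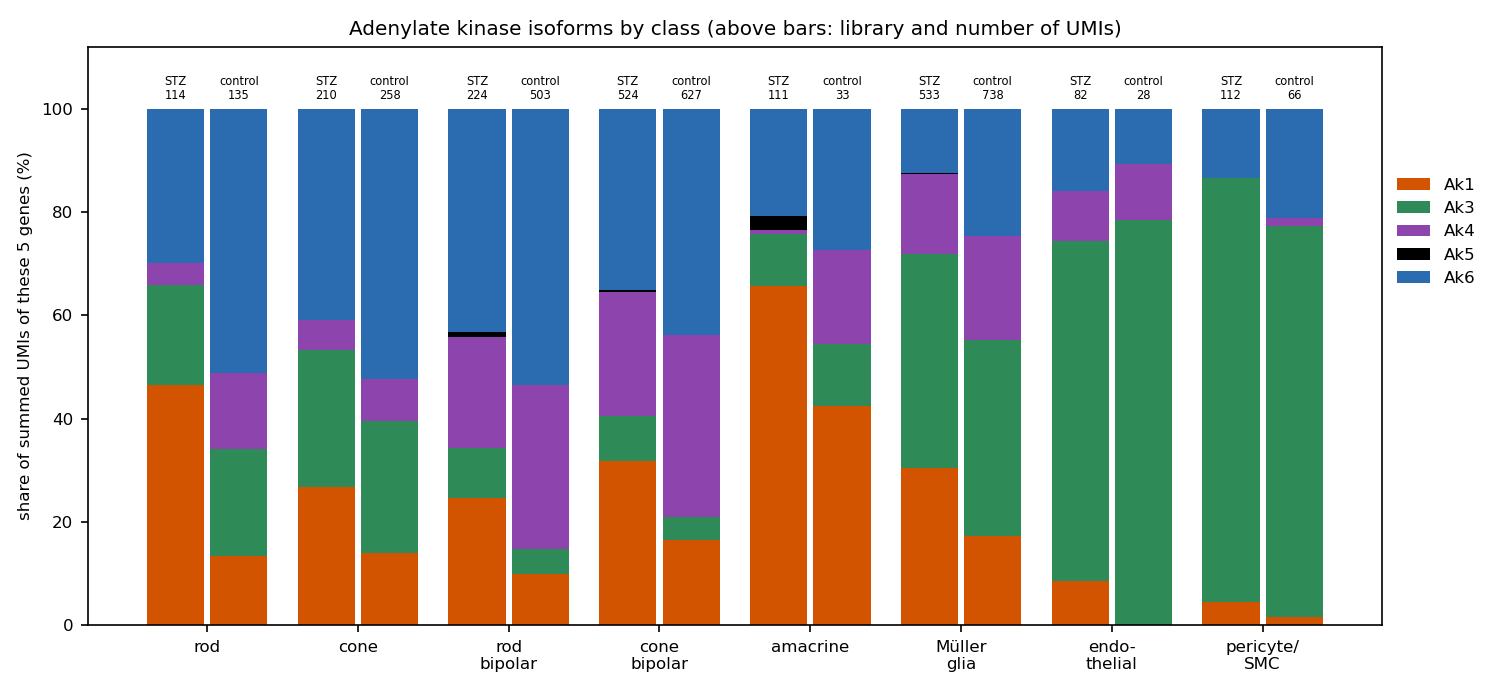
Share of each adenylate kinase (vertical axis, % of the summed UMIs of Ak1, Ak3, Ak4, Ak5 and Ak6) in 8 classes (horizontal axis), with the STZ bar left of the control bar and the number of UMIs above it. Ak1 is wider and Ak6 narrower in STZ in every neuronal class and in Müller glia-like cells, not always with intervals apart. Ak3 is the largest part of every bar of the vessel classes.

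By class, the kinase calls stand beside those of all measured genes as follows. In rod-like cells 2 kinases were lower and 1 was higher, against 5.93% of genes lower and 5.45% higher. In cone-like cells 1 was lower and 0 were higher, against 3.03% and 5.06%. In rod bipolar-like cells 2 were lower and 0 higher, against 5.73% and 5.06%, and in cone bipolar-like cells 2 were lower and 0 higher, against 4.17% and 4.21%. Amacrine-like cells had 0 calls in either direction, against 4.35% of genes lower and 3.02% higher. Müller glia-like cells had 1 lower and 1 higher, against 2.84% and 5.21%. Endothelial-like cells had 0 lower and 2 higher, against 9.87% and 9.72%, and pericyte or smooth muscle-like cells had 0 lower and 1 higher, against 4.2% and 5.68%. The median log2 ratio over all measured genes lay between -0.03 and 0.03 in these classes.

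Of 26 measured gene-class pairs of the 7 creatine system genes, Ckb and Ckmt1 included, 3 (11.5%) were lower and 3 (11.5%) higher, against 4.88% lower and 5.34% higher over all measured pairs. The 3 higher calls and 1 of the lower ones are those of Ckb and Ckmt1 given above, and class medians ran from -0.63 in rod-like to 1.55 in endothelial-like cells. Gamt, the last enzyme of creatine synthesis, was lower in cone bipolar-like cells, with 10.4 CPM in STZ and 17.3 CPM in control. Gatm, the first enzyme of that synthesis, was lower in endothelial-like cells, with 98.2 CPM in STZ and 158 CPM in control. The endothelial markers given above were also lower there, and what this shared direction adds to the Gatm ratio was not tested. Slc6a8, the creatine transporter, had no call in any class and stood at 68.5 CPM in STZ and 54.0 CPM in control cone-like cells. Of the other adenylate kinases looked up, Ak5 had at most 3 UMIs in STZ and 0 in control in any compared class, and Ak7, Ak8 and Ak9 had no row in the count table.

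Kinases that hand phosphate on to other nucleotides or to nucleosides had 2 lower and 7 higher calls in 70 measured pairs of 15 genes. That is 2.86% lower and 10.0% higher, against 4.88% and 5.34% over all measured pairs. Of the 7 higher calls, 5 lay in the vessel classes, where the photoreceptor, rod bipolar and Müller glia markers were also higher. Nme1, a nucleoside diphosphate kinase, was higher in rod-like cells, with 252 CPM in STZ and 166 CPM in control, and lower in amacrine-like cells, with 257 CPM in STZ and 394 CPM in control. Guk1, guanylate kinase, was higher in endothelial-like cells, with 296 CPM in STZ and 141 CPM in control. Adk, adenosine kinase, was higher in cone-like cells, with 14.6 CPM in STZ and 9.50 CPM in control. Dguok, the mitochondrial deoxyguanosine kinase, was lower in endothelial-like cells, with 59.9 CPM in STZ and 108 CPM in control. There the endothelial markers were lower too, and what this adds to the Dguok ratio was not tested.

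Genes that sense or remove AMP had 5 lower and 6 higher calls in 73 measured pairs of 13 genes, spread over both directions. These shares, 6.85% lower and 8.22% higher, stand beside 4.88% and 5.34% over all measured pairs. Prkab1, a beta subunit of AMP-activated protein kinase, was higher in cone-like cells, with 50.2 CPM in STZ and 26.5 CPM in control, and in cone bipolar-like cells, with 17.4 CPM in STZ and 10.1 CPM in control. Prkab2, the other beta subunit, was lower in cone bipolar-like cells, with 19.4 CPM in STZ and 31.7 CPM in control. The catalytic subunit gene Prkaa2 was higher in rod bipolar-like cells, with 29.3 CPM in STZ and 17.9 CPM in control, and lower in amacrine-like cells, with 50.4 CPM in STZ and 93.6 CPM in control. Nt5c2, a cytosolic nucleotidase, was higher in amacrine-like cells, from 47 UMIs in STZ and 4 in control.

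Carriers and channels that move adenine nucleotides or phosphate across the mitochondrial membranes had 1 lower and 3 higher calls in 69 measured pairs of 10 genes. All 4 calls lay in the vessel classes. At 1.45% lower and 4.35% higher, both shares were below the 4.88% and 5.34% over all measured pairs. Vdac1, the outer membrane channel, was higher in endothelial-like cells, with 244 CPM in STZ and 111 CPM in control, and in pericyte or smooth muscle-like cells, with 282 CPM in STZ and 177 CPM in control. Slc25a4, an ADP/ATP carrier, was higher in endothelial-like cells, with 502 CPM in STZ and 259 CPM in control, where Slc25a24, an ATP-Mg carrier, was lower, with 18.4 CPM in STZ and 50.4 CPM in control. The photoreceptor, rod bipolar and Müller glia markers were also higher in these classes, and the markers of the classes themselves were lower. The part of either in these ratios was not tested.

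The glycolytic genes that use or yield ATP had 10 lower and 5 higher calls in 53 measured pairs of 7 genes, and 7 of the lower calls were 1 gene. As shares, 18.9% were lower and 9.43% higher, against 4.88% and 5.34% over all measured pairs. Pfkl, the liver-type phosphofructokinase, was lower in 7 of 8 classes, for example in rod-like cells, with 88.5 CPM in STZ and 198 CPM in control, and in cone bipolar-like cells, with 141 CPM in STZ and 284 CPM in control. Hk2, a hexokinase, was lower in rod-like cells, with 353 CPM in STZ and 543 CPM in control, and was higher in endothelial-like cells, from 32 UMIs in STZ and 3 in control. Pgk1, phosphoglycerate kinase, was lower in cone bipolar-like cells, with 543 CPM in STZ and 824 CPM in control. It was higher in endothelial-like cells, with 190.3 CPM in STZ and 108 CPM in control, and in pericyte or smooth muscle-like cells, with 141 CPM in STZ and 74.9 CPM in control. The photoreceptor, rod bipolar and Müller glia markers given above were also higher in these vessel classes, and their part in the Hk2 and Pgk1 ratios was not tested. Pfkp, the platelet-type phosphofructokinase, was lower in amacrine-like cells, with 227 CPM in STZ and 370 CPM in control. Over the 7 glycolytic genes the median log2 ratio lay between -0.46 in rod-like and 0.61 in endothelial-like cells.

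Likeness of profile was measured by Pearson correlation of log2(CPM + 10) over 16 points, 8 classes in 2 libraries, against 7215 genes that reached 50 CPM in at least 1 point. Points share libraries and depth, and the values are descriptions. Ckmt1 was most like Hspb6 (r = 0.97), Synrg and Arfgef1, each of which had its own highest level in control cone-like cells. Ak3 was most like Ppp2r5a (r = 0.98), Tprgl and Lsm10, all highest in pericyte or smooth muscle-like cells. Ckb was most like Ten1 (r = 0.95), Zfp612 and Amn1, and Ak1 most like Sf3b6 (r = 0.94), Erg28 and Sirpa. Less close matches were found for Ak4, with Mbd6 (r = 0.84), Gtf3c1 and Cnmd, and for Ak6, with Hspd1 (r = 0.83), Akap8l and Dnmt3a. Their highest levels, 49.7 CPM for Ak4 and 67.7 CPM for Ak6, were the lowest among the members. The part of counting error in these lower correlations was not tested. Among the members themselves the closest pair was Ckb and Ak1 (r = 0.71), Ckb and Ak3 ran opposite (r = -0.76), and Ak4 and Ak6 had r = 0.52.

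The unnamed cluster 0, with a median of 705 UMIs in its 1667 STZ cells, carried the kinases too. Ckb stood at 3577 CPM, Ckmt1 at 87.5 CPM, Ak1 at 35.3 CPM, Ak3 at 21.3 CPM, Ak4 at 7.36 CPM and Ak6 at 21.3 CPM in STZ, and the 7 control cells were too few to compare. These values lie within the range of the STZ neuronal classes for every one of the 6 kinases except Ak3, which was above that range of 6.57 to 14.4 CPM. STZ rod-like cells had similar levels of Ckmt1 (86.5 CPM), Ak1 (34.7 CPM) and Ak6 (22.3 CPM). Their levels of Ckb (1352 CPM), Ak3 (14.4 CPM) and Ak4 (3.28 CPM) were lower. Cluster 0 is larger than the rod-like class of 1017 STZ cells, and how adding it would change the rod ratios was not tested.

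**Figure D5:**
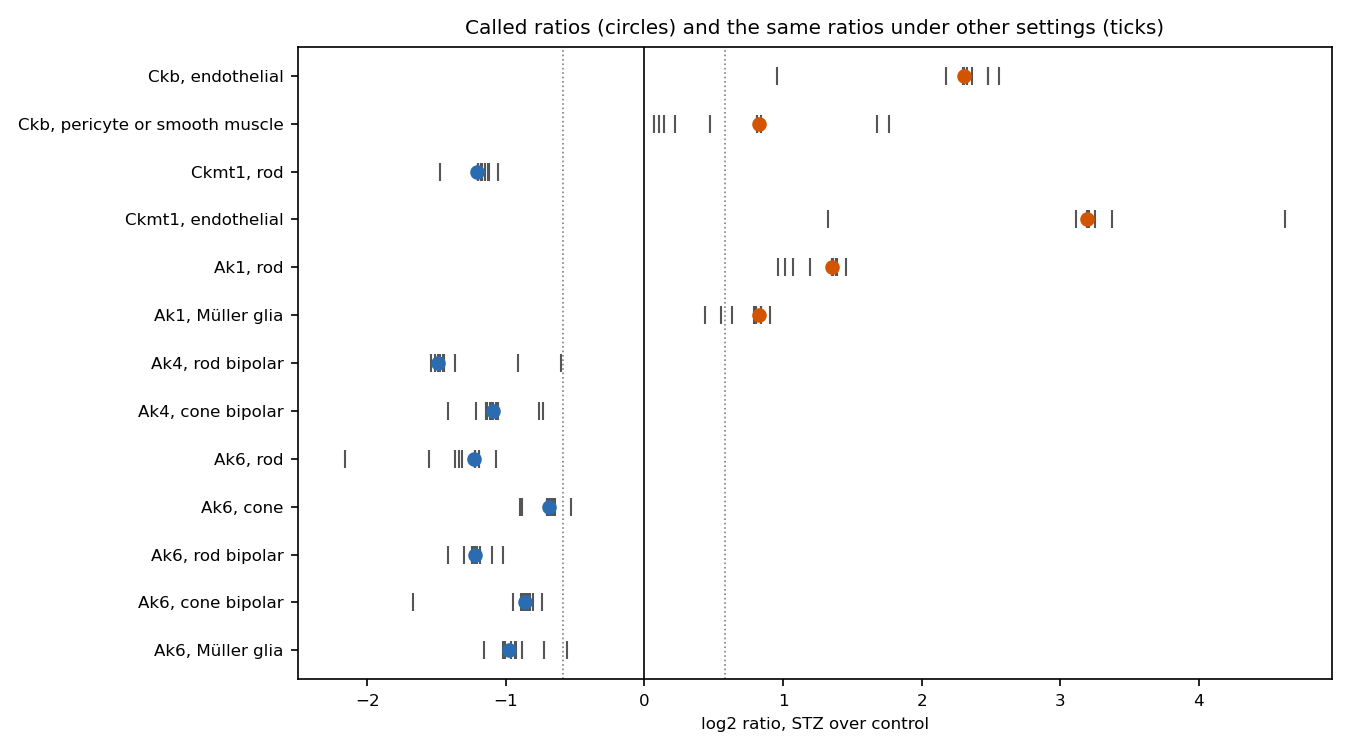
The 13 called log2 ratios of STZ over control (circles, blue lower and orange higher, horizontal axis) and the same ratios under the other settings that gave a value (grey ticks), with dotted lines at 1.5-fold. No tick lies on the other side of 0 from its circle, and Ckb in pericyte or smooth muscle-like cells has the ticks nearest to 0 (lowest 0.07).

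Across the other settings the calls differed in firmness. Ckmt1 in rod-like cells was called lower in all 11 settings that gave a value, with log2 ratios from -1.47 to -1.06. Ak6 was called lower in all settings that gave a value in rod-like, rod bipolar-like and cone bipolar-like cells. Ckb in endothelial-like cells was called higher in the 10 settings that gave a value and dropped to 0.96 with the stricter filter on cells. Ckb in pericyte or smooth muscle-like cells lost its call in 5 of 10 settings. Ak4 in rod bipolar-like cells lost its call with the stricter filter, at -0.91, and among cells of 1000 to 4000 UMIs, at -0.60. Ak4 in cone bipolar-like cells lost it after thinning to 500 UMIs, at -0.76. Ak1 lost its call in rod-like cells under the stricter filter, at 1.02. In Müller glia-like cells Ak1 lost it after thinning to 500 UMIs, at 0.43, and among cells of 1000 to 4000 UMIs.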

How the data were processed

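Unnormalised UMI counts for 19562 cells and 17087 genes were deposited as a single matrix, all whole numbers, whose cell names end in a tag for the library. Cell Ranger 3.0.1, Seurat 3.0 and mm10 are named in the submitters' processing notes, and counting settings are not given in the sources used here. Per the labels, libraries were 10x Chromium single-cell 3' version 3 loaded at 1000 cells per µl. The table holds no cell over 2999 genes and none under 499 UMIs, so filtering preceded deposit. The STZ library had 33178623 UMIs and the control library 27279124.

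The filter on cells asked for 200 or more genes and no more than 20% mitochondrial UMIs. Scrublet (scanpy 1.11.5) called 0 doublets in STZ and 31 (0.582%) in control by its automatic threshold, so the top scores at 0.8% per 1000 cells were removed in both, 628 in STZ and 227 in control. Clustering used 2000 variable genes without the kinases and list genes, 30 components, 15 neighbours and Leiden (leidenalg 0.10.2) at resolution 1.0. A cluster took the class with the largest share of leading markers, at least 3 of them, a marker leading at 10% of the cells, 1.5-fold over the others and 25% of its highest cluster.

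UMIs were summed by class and library. A count of 0 was set to 3 for ratios. Intervals (scipy 1.17.1, 95%) take UMIs as independent molecules, which makes them too narrow where few cells hold most UMIs. They were tested on simulated data that also held independent counts. That test checks the calculation and cannot show how the intervals fare with spread between cells or animals. The members, the 6 lists and the rules were chosen with earlier results of these data known. From each list up to 4 genes were named, those called in the most classes, plus the transporter Slc6a8, the muscle creatine kinases and Taf9, named after their values were seen. In all, 10 of the alternative settings planned are given, and 1 was added after the data were seen (shared barcodes left out). Some genes of the lists, and a planned setting that needed one of them, are not reported here. Cells are not replicates, so no p-value is given.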

Additional observations from a re-analysis of the deposited data

Results flagged for a closer look

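Ckb differed in direction between classes, with a log2 ratio of STZ over control of 2.31 in endothelial-like cells and -0.28 in cone-like cells. The difference between the classes was not tested, since there is 1 library per group. The rod and cone markers in endothelial-like cells, at 2957 CPM in STZ and 810.0 CPM in control for 9 rod markers and 3628 CPM in STZ and 696 CPM in control for 10 cone markers, moved with the endothelial value. So did the markers of bipolar, amacrine and Müller glia cells given above.

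Ckmt1 likewise had a log2 ratio of 3.19 in endothelial-like cells and -1.21 in rod-like cells, and this difference was not tested either. The endothelial value rests on 20 UMIs in STZ and 1 in control, whereas the rod value rests on 132 UMIs in STZ and 264 in control.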

How the results depend on the processing

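Of 353 ratios recomputed under the 11 other settings, 315 stayed within the counting interval of the reported ratio, 38 moved beyond it, and no called ratio changed sign. The 8 lower calls became 5 with the stricter filter on cells, which left 28 measured pairs, and lay within 1.5 times of 8 otherwise. The 5 higher calls became 2 with the stricter filter, 3 with doublets kept, 3 with cells thinned to 500 UMIs, 2 among cells of 1000 to 4000 UMIs and 8 with a mean over cells (by fold alone). Fewer pairs were measured with thinning (23) and among cells of 1000 to 4000 UMIs (22). Beyond these, the cause was not tested. The higher calls lost include Ckb in pericyte or smooth muscle-like cells, whose log2 ratio ran from 0.07 at clustering resolution 0.5 to 1.77 after thinning, and Ckmt1 in endothelial-like cells, at 1.32 with doublets kept. Ckmt1 in cone-like cells, short of the limit as reported, was called lower after thinning, at -0.65, and when centred on all genes. Ak6 lost its call in cone-like cells under 3 settings and in Müller glia-like cells under 2, with log2 ratios no nearer to 0 than -0.53 and -0.56. Ak3 in Müller glia-like cells, with no call as reported, fell to -1.19 among cells of 1000 to 4000 UMIs. Depth limits the comparison, and 13 of the 48 kinase-class pairs were not measured. The planned subtraction of free RNA is not among these settings. No paired analysis was possible because each group has 1 library.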
